A study of Mus musculus with 24 samples.

Results

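The transcripts described here encode the soluble enzymes, membrane proteins and proton pump of the lysosome. They are a list of 39 gene symbols, drawn up with earlier results of these data known and each matched to 1 row of the deposited expression table of 35275 genes. The members are 12 peptidases, 9 sugar hydrolases, 4 lipid hydrolases or their activators, 2 acid phosphatases, 6 membrane proteins and progranulin, and 6 proteins of the vacuolar proton pump. The samples were gonadal and inguinal white fat of mice with a conditional adipose knockout of FoxO1, a forkhead transcription factor that insulin signalling holds out of the nucleus, and of floxed FoxO1 mice, which served as controls. RNA was sequenced to find genes and pathways under FoxO1 control. No label gives the Cre driver, sex, age or diet of the mice. Library names carry 6 animal numbers (control mice M6, M7 and M10, knockout mice M5, M9 and M12), and each pad of each mouse has 2 libraries, which were averaged, so that n = 3 mice per group throughout.

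The lysosome is the acidic compartment in which cells break down proteins, sugars, lipids and nucleic acids. A vacuolar ATPase pumps protons across its membrane, the enzymes work at the resulting acid pH, and many of their genes are under the control of TFEB and related factors that bind a palindrome known as the CLEAR element. In fat, lysosomal acid lipase and autophagy act beside the cytosolic lipases of the adipocyte, and the macrophages of the tissue are rich in lysosomes.

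Library totals ran from 14953657 to 25438811 reads. The adipocyte list (10 genes, among them Fabp4 and Adipoq) summed to between 7603 and 29009 FPKM per pad, where FPKM is fragments per gene length and per read assigned to genes. Other sources of RNA separated the pads by mouse. Transcripts of the epididymis summed to 726, 3653 and 6775 FPKM in the gonadal pads of M6, M10 and M12 and to at most 2.89 in those of M7, M5 and M9. B cell transcripts summed to 172 to 282 FPKM in the inguinal pads of M6, M10, M5 and M12 and to at most 3.86 in those of M7 and M9. Skeletal muscle transcripts summed to between 6.57 and 622 FPKM in the inguinal pads. Red blood cell genes were lower in the knockout pads of both depots, all 6 of them at an unadjusted limma p under 0.05 in inguinal fat and 5 of 6 in gonadal fat. Of all genes tested, 11.6% in inguinal and 4.3% in gonadal fat were lower at that p.

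Foxo1 itself stood at 13.6, 7.87 and 9.53 FPKM in the gonadal fat of the control mice and at 4.07, 4.46 and 4.01 FPKM in that of the knockout mice. In inguinal fat it stood at 19.7, 13.0 and 14.5 FPKM in control and 4.12, 2.49 and 5.69 FPKM in knockout mice. The groups did not overlap in either depot. With 3 mice against 3, the exact two-sided permutation p of 0.1 is the smallest the design allows, and the limma adjusted p, over all genes tested, was 0.407 in gonadal and 0.129 in inguinal fat.

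Of the 39 members, 38 were at 1 FPKM or more in all 12 pads, and Atp6v0d2, a subunit of the pump's membrane sector, was the exception. A few members made most of the lysosomal message. In the gonadal fat of control mice, prosaposin (Psap, precursor of the saposins that help enzymes reach sphingolipids) stood at 2071 ± 397 FPKM (SD, n = 3), cathepsin D (Ctsd, an aspartic peptidase) at 1867 ± 406 and cathepsin S (Ctss, a cysteine peptidase that trims the invariant chain in antigen-presenting cells) at 1539 ± 209.9. Cathepsin B (Ctsb, a cysteine peptidase) followed at 899.6 ± 116 FPKM. In the inguinal fat of the same mice the order of the leading genes was Ctsd at 903 ± 237 FPKM, Psap at 719 ± 31.0 and Ctsb at 524 ± 11.6, and Ctss stood at 76.5 ± 44.5. Within each gonadal control pad Psap was above Ctsd (1700.4 against 1490, 2490.2 against 2297 and 2021 against 1815 FPKM in M6, M7 and M10). In the inguinal pads Ctsd was above Psap in M7 and M10 and below it in M6.

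The least abundant members in gonadal control fat were Idua (alpha-iduronidase, which removes iduronic acid from heparan and dermatan sulfate) at 5.82 ± 0.0535 FPKM and Cln3 (a membrane protein whose loss causes juvenile Batten disease) at 11.7 ± 1.08. Ctss made up 14.3% of the members' summed FPKM in gonadal control fat and 1.85% in inguinal control fat, while Ctsd made up 17.2% and 21.4%. All 39 together summed to 9178, 12726 and 10431 FPKM in the gonadal and to 3989, 4344 and 4269 FPKM in the inguinal pads of control mice. Between the 2 libraries of a pad, the largest log2 difference among a group's 3 mice had a median over the members of 0.07 to 0.12. The SD between mice had a median of 0.08 (inguinal knockout) to 0.24 (gonadal knockout). A largest difference and an SD are unlike measures.

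**Figure D1:**
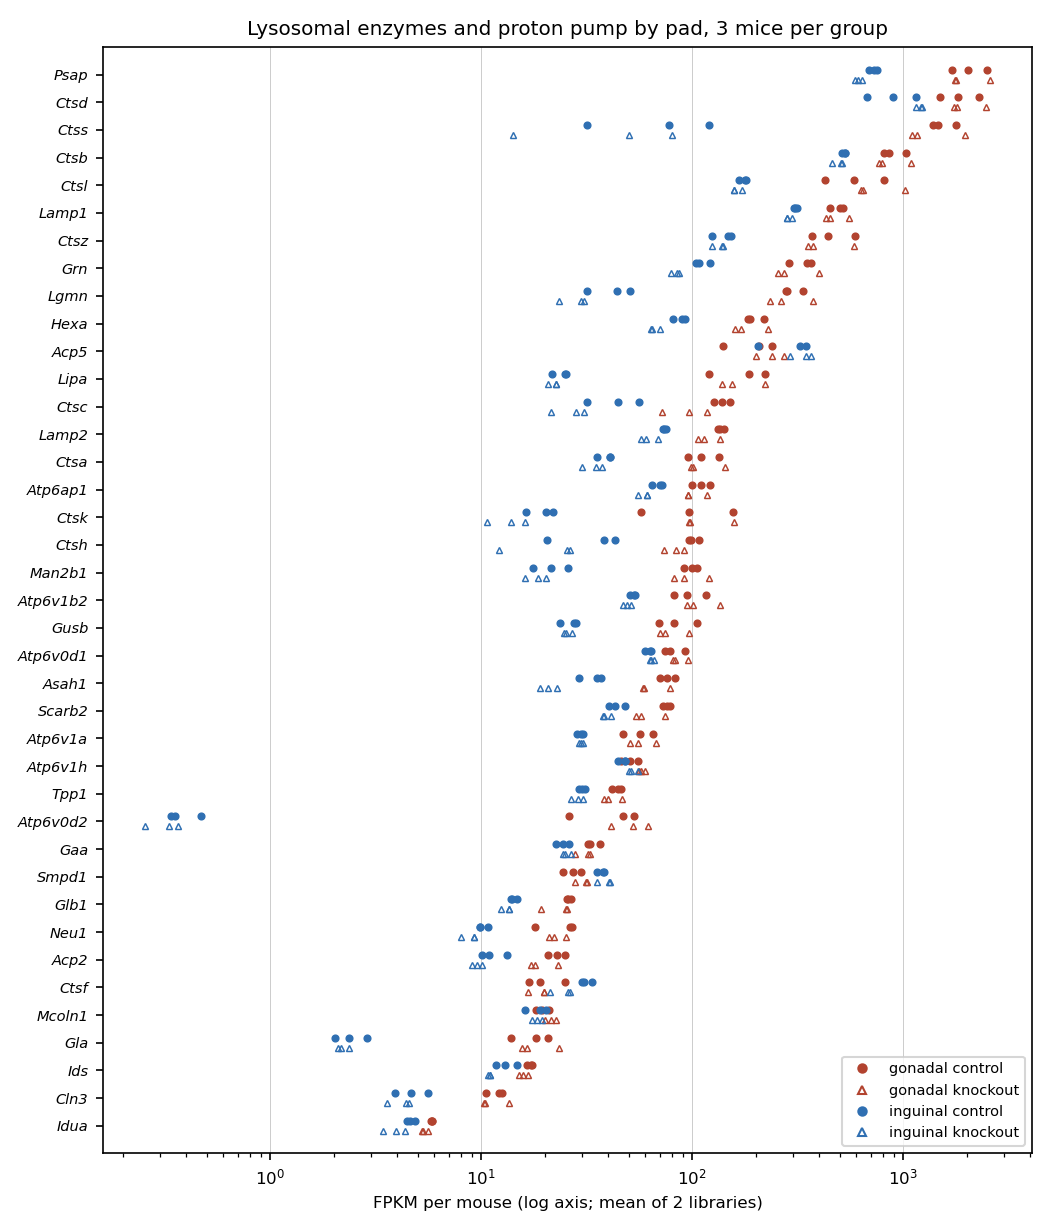
FPKM of each of the 39 members (rows) on a log axis, 1 point per mouse (mean of 2 libraries), in gonadal (red) and inguinal (blue) fat of control (filled circles) and knockout (open triangles) mice, 3 mice per group. Gonadal points lie to the right of inguinal ones for most members, furthest for Atp6v0d2 and Ctss, while Ctsf, Smpd1 and Acp5 lie to the left.

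Promoters were examined for what the members share in sequence. RefSeq's promoter table (GRCm38.p6, the same assembly as mm10, 250 bases before to 50 after each start) held 33 of the 39 members and none for Ctsb, Ctsh, Asah1, Atp6v0d2, Atp6v1b2 and Atp6v1h. The CLEAR core TCACGTGA, a palindrome that reads alike on both strands, occurred in 7 of these 33 members (21.2%) and in 1.12% of the 27025 genes of the table. The shorter E-box CACGTG, which the CLEAR core contains, occurred in 13 of 33 (39.4%) and in 8.09% of all genes. The forkhead core GTAAACA, searched on both strands, occurred in none of the 33 members and in 4.05% of all genes. With so low a share in all genes, none among 33 is near the background. Members without a promoter in the table, and sequence outside the window, were not searched. A match describes these letters in this window and is not a measurement of binding. The 7 promoters with the CLEAR core are shown around it, 5′ to 3′ on the gene's strand, with the core in capitals. They are at chr2:164833744-164833772 (Ctsa, plus strand), chr7:142387903-142387942 (Ctsd, minus), chrX:134601177-134601249 (Gla, minus), chr7:126583335-126583374 (Cln3, minus), chr8:3500457-3500496 (Mcoln1, plus), chr8:105566061-105566084 (Atp6v0d1, minus) and chr16:44139368-44139407 (Atp6v1a, minus).
Ctsa: aacaatgagcaaactgTCACGTGAtgcag
Ctsd: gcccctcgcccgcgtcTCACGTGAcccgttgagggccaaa
Gla: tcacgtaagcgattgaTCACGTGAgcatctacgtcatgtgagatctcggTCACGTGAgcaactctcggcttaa
Cln3: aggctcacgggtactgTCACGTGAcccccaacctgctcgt
Mcoln1: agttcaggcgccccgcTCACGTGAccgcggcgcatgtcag
Atp6v0d1: ccaggccctactgcggTCACGTGA
Atp6v1a: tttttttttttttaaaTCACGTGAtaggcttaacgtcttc
Gla, the alpha-galactosidase A of the lysosome, carries 2 copies in its window. Ctsa also has 2 copies, but the other lies past the start and is not in the sequence shown. Ctsa and Cln3 each have 2 promoters in the table, and the core is only in the promoter shown. The 7 genes with the CLEAR core span the peptidases, a sugar hydrolase, membrane proteins and the pump.

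Lysosomal transcripts were higher in gonadal than in inguinal fat. In control mice 34 of 39 members were higher in gonadal fat and 2 were lower at a limma adjusted p under 0.05, against 31.9% higher and 17.2% lower of all 14577 genes tested. The members' median difference was 1.06 on the log2(FPKM + 0.5) scale, and that of all genes was 0.19. In knockout mice, whose values come from the same fit, the counts were again 34 higher and 2 lower (background 37.2% and 13.4%), with a median of 1.15 against 0.27. Paired within each mouse, 34 members were higher in the gonadal pad of all 6 mice and 3 were lower in all 6. All 36 members called in control mice came from groups that did not overlap (background 38.8% higher and 20.1% lower).

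Atp6v0d2 had the largest depot difference among the members. It encodes a d subunit of the pump's membrane sector that is found in osteoclasts and macrophages, while its paralog Atp6v0d1 is expressed in most tissues. Atp6v0d2 stood at 26.1, 52.7 and 47.1 FPKM in gonadal and at 0.47, 0.337 and 0.355 FPKM in inguinal fat of control mice, a mean ratio of 108 (log2 difference 5.52, SE 0.23, limma adjusted p = 3.29e-07). Every gonadal pad was far above every inguinal pad, also in knockout mice (41.4 to 61.4 against 0.255 to 0.364 FPKM). Atp6v0d1 was higher by 0.39 (SE 0.09, limma adjusted p = 0.00557). As a share of the sum of both paralogs, Atp6v0d2 made up 33.2 ± 6.36% in gonadal and 0.624 ± 0.139% in inguinal control fat, and 37.2 ± 2.96% and 0.492 ± 0.0869% in knockout fat.

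Among the peptidases, Ctss stood at 1379.9, 1777 and 1459 FPKM in gonadal and at 121, 31.6 and 77.3 FPKM in inguinal control fat, which is 20.1 times higher by the means (log2 difference 4.51, SE 0.61, limma adjusted p = 0.000218). Its inguinal level was the most uneven of the members, and the pads low in Ctss, those of M7 and M9, were the 2 with almost no B cell transcripts. Legumain (Lgmn, which cuts after asparagine and activates other cathepsins) stood at 279, 335 and 282 against 50.4, 31.9 and 44.0 FPKM (7.09 times higher, log2 difference 2.83). Cathepsin K (Ctsk, the collagen-degrading enzyme of osteoclasts) was 5.29 times, cathepsin L (Ctsl) 3.48 times and the carboxypeptidase cathepsin A (Ctsa) 2.89 times higher.

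Gla stood at 13.8, 20.6 and 18.1 FPKM in gonadal and at 2.89, 2.03 and 2.37 FPKM in inguinal control fat, 7.21 times higher (log2 difference 2.61, SE 0.18, limma adjusted p = 5.75e-06). Lysosomal acid lipase (Lipa, which splits cholesteryl esters and triglycerides) stood at 119.9, 222 and 186 against 25.0, 21.6 and 25.3 FPKM, 7.34 times higher (log2 difference 2.81, SE 0.22). Neither gene's groups overlapped. Lysosomal alpha-mannosidase (Man2b1) was 4.58 times higher, and progranulin (Grn) had a log2 difference of 1.58 (SE 0.16). Beta-glucuronidase (Gusb) was 3.24 times higher and prosaposin 2.88 times, at 1700.4, 2490.2 and 2021 FPKM in gonadal and 724, 685 and 747 FPKM in inguinal fat. The structural membrane proteins differed less, Lamp1 by 1.59 times and Lamp2 by 1.86 times, while Cln3 differed by 2.48 times. Of the pump, the catalytic subunit Atp6v1a was 1.91 times and Atp6v1b2 1.86 times higher.

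Cathepsin F (Ctsf) and acid sphingomyelinase (Smpd1, which makes ceramide from sphingomyelin) went the other way. Ctsf stood at 24.9, 16.8 and 19.0 FPKM in gonadal and at 30.1, 33.4 and 30.7 FPKM in inguinal control fat (log2 difference -0.64, SE 0.14, limma adjusted p = 0.00394). Smpd1 stood at 29.8, 27.3 and 24.4 against 37.9, 38.4 and 35.3 FPKM (log2 difference -0.45, SE 0.09, limma adjusted p = 0.00252). The tartrate-resistant acid phosphatase Acp5 was lower in the gonadal pad of all 6 mice. Its log2 difference of -0.57 (SE 0.24, limma adjusted p = 0.0724) in control mice did not pass the test, and it passed with the mouse as a block. The cation channel Mcoln1 (log2 difference 0.08, limma adjusted p = 0.516) and the regulatory pump subunit Atp6v1h (0.11, limma adjusted p = 0.269) had mixed directions among mice. Both are below 0 when FPKM are rescaled by TMM factors, a scaling that moves the all-gene median by -0.16 and leaves 30 members called higher and 2 called lower in control mice (background 23.4% and 22.8%).

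Marker genes of cell types differed between the depots as well. Of 18 macrophage genes 16 were called higher in gonadal fat of control mice (median 2.34), of 8 lipid-associated macrophage genes 7 (median 5.27), and all 10 adipocyte genes were called lower (median -1.43). The background was 31.9% higher and 17.2% lower, with an all-gene median of 0.19. The macrophage receptors Adgre1 and Csf1r stood at 52.2 and 139.5 FPKM in gonadal and at 7.98 and 26.7 in inguinal control fat, and Cd68, a lysosomal glycoprotein of macrophages, at 292 and 20.2. The summed macrophage list ran from 9422 to 14632 FPKM in gonadal and from 740 to 1598 in inguinal control pads, and no gene of it was at 0. In whole tissue, fewer cells of a type and less RNA per cell cannot be told apart. The part of the macrophage and adipocyte content in the members' depot differences was not tested.

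Other lysosomal genes were split by kind. Another 3 lists of the same compartment (28 other hydrolases, 22 other membrane proteins and 19 other pump genes) held 65 tested genes. Of these 44 were called higher and 2 lower in gonadal fat of control mice (background 31.9% and 17.2%), with a median of 0.51. The hydrolases (26 of 28 higher, median 0.65) and pump genes (14 of 15 higher, median 0.51) lay above the all-gene median of 0.19. The 22 membrane proteins, 13 higher and 9 lower with a median of 0.17, did not. Of all 14577 genes tested 9237 were higher and 5340 lower. Tcirg1, the pump's a subunit of osteoclasts and immune cells, stood at 79.9 against 12.8 FPKM (log2 difference 2.65). The lysosomal channel gene Tpcn2 stood at 23.3 against 3.94 FPKM. These 2 genes were picked after their values were seen.

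In gonadal fat no member was called between knockout and control mice. By limma 0 of 39 passed the adjusted p of 0.05 (background 0% of 14851 genes), 2 were lower and 0 higher at an unadjusted p under 0.05 (background 4.3% and 4.4%), and edgeR and DESeq2 on the rebuilt reads also called 0 (background 0% and 2.11%). The members lay on both sides of no change, 13 higher and 26 lower, with a median difference of -0.05 on the log2 scale against -0.02 for all genes. Groups did not overlap for 1 higher and 4 lower members (background 6.79% and 7.54%). That share is near the background.

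The 2 members below an unadjusted p of 0.05 were both peptidases. Cathepsin C (Ctsc, a dipeptidyl peptidase that activates the serine proteases of granulocytes and cytotoxic cells) stood at 138, 150.3 and 127 FPKM in control and at 118, 97.0 and 71.6 FPKM in knockout mice (log2 difference -0.56, SE 0.19, limma adjusted p = 0.512). Cathepsin H (Ctsh, an aminopeptidase) stood at 108, 96.1 and 98.5 against 91.0, 73.2 and 84.2 FPKM (log2 difference -0.29, SE 0.11, limma adjusted p = 0.538). For both genes every knockout pad was below every control pad. Of the 35275 genes 14851 had a mean of at least 0.5 FPKM in gonadal fat, all 39 members among them. The authors' deposited table of genes listed as changed in gonadal fat holds 1808 genes. It lists 2 of the 39 members, the same pair, with log2 fold changes of -0.48 for Ctsc and -0.26 for Ctsh. A limma fit with the 6 libraries of a group as replicates called the same pair and no other member, 2 of 39 (background 3.74% lower). It counts both libraries of a mouse as replicates, so it is no independent check.

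Other members with the smallest p of their group were Scarb2 (the receptor that carries glucocerebrosidase to the lysosome) with a log2 difference of -0.30 (SE 0.13, limma adjusted p = 0.6), Lamp2 with -0.21 and ceramidase Asah1 with -0.23 (SE 0.14, limma adjusted p = 0.713). Scarb2 stood at 72.4, 78.3 and 76.1 FPKM in control and at 74.2, 57.2 and 53.9 FPKM in knockout mice, with only M5 inside the control range. The sugar hydrolases lay close together, 8 of 9 lower with differences from -0.16 to 0.07, where 8287 of all 14851 genes were lower. Idua stood at 5.76, 5.87 and 5.83 against 5.60, 5.28 and 5.25 FPKM and Glb1 at 25.8, 25.4039 and 26.7 against 25.3827, 19.2 and 25.3 FPKM, both without overlap, and Ids at 16.4, 17.3 and 17.3 against 16.7, 15.7 and 15.1 FPKM with overlap. Of the phosphatases, Acp2 had a difference of -0.23 (SE 0.13) and Acp5 of 0.31 (SE 0.23), both with overlapping groups. Of the 6 pump genes 5 were higher, with a median of 0.13, and 1 of them, Atp6v1h, had groups that did not overlap: 46.1, 55.2 and 50.7 FPKM in control and 59.8, 57.2 and 56.1 FPKM in knockout mice (log2 difference 0.19, SE 0.09, limma adjusted p = 0.619). Atp6v0d2 stood at 26.1, 52.7 and 47.1 against 61.4, 41.4 and 52.2 FPKM, with overlapping groups. Atp6v1b2, a subunit of the pump's catalytic sector, overlapped as well, at 81.5, 117 and 93.9 against 136, 94.8 and 101 FPKM. The 7 genes with the CLEAR core in the promoter all overlapped, with differences of 0.02 (Ctsa), 0.10 (Ctsd), 0.07 (Gla), -0.05 (Cln3), 0.13 (Mcoln1), 0.08 (Atp6v0d1) and 0.04 (Atp6v1a).

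The highest gonadal levels came from 1 mouse of each genotype. Knockout mouse M5 had the highest level of the 6 mice for 22 of 39 members and control mouse M7 for 11, and these 2 mice held both top ranks for 25 of 39. Control mouse M6 was lowest for 16 members and knockout mouse M12 for 14. Ctsl shows it, at 427, 811 and 584 FPKM in M6, M7 and M10 and at 1014, 647 and 631 FPKM in M5, M9 and M12. The lipid-associated macrophage list had its highest sums in the same 2 mice, 3740 FPKM in M7 and 4066 in M5, and its lowest, 1402, in M6.

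The macrophage list ran lower in knockout gonadal fat, 17 of 18 genes with a median of -0.39 and 4 at an unadjusted p under 0.05 (background 4.3% lower). It summed to 9422, 14632 and 12301 FPKM in control and to 12707, 8725 and 7297 in knockout mice. Adipocyte genes ran higher, 10 of 10 with a median of 0.41. With the macrophage list as a covariate 0 members were lower and 1 was higher at an unadjusted p under 0.05 (background 1.45% and 1.7%). The members' median was then 0.22, so that the sign of the median depends on that term. It also depends on single mice: the median was 0.02 without M7, 0.00 at 2 decimals without M9, with 20 members higher and 19 lower, and 0.01 without M12. Left out one at a time, the mice gave 0 to 7 members lower at that p. The 7 came without M5 (background 6.51%, and 2.59% to 4.74% in the other fits).

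**Figure D2:**
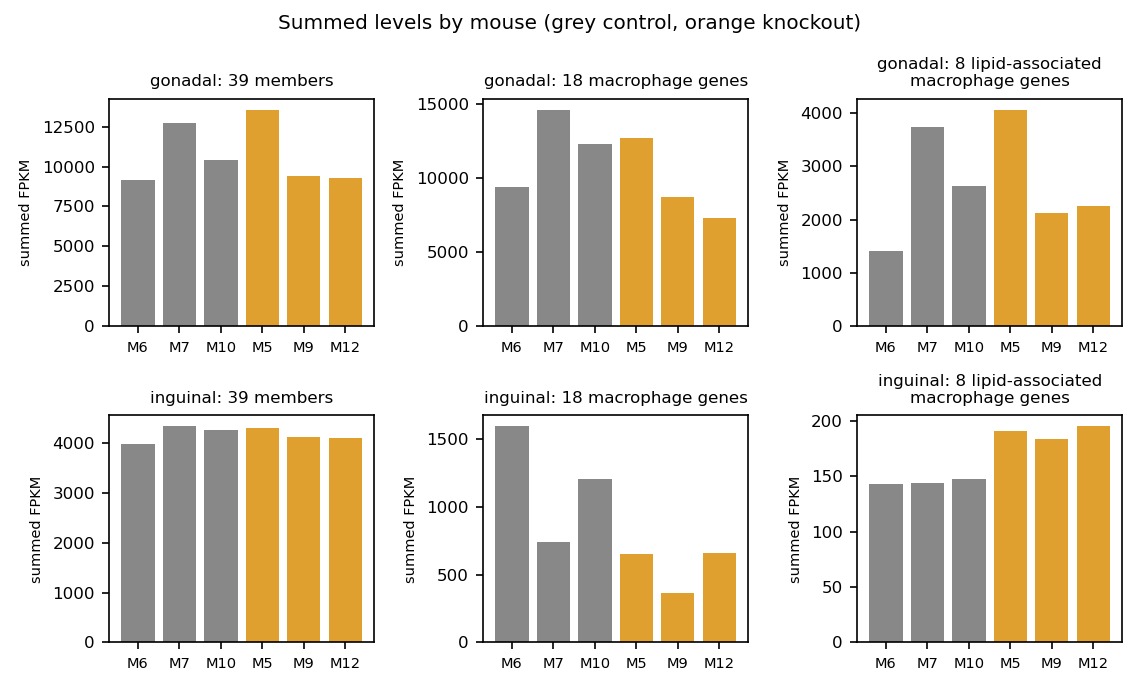
Summed FPKM per mouse (bars from 0; grey control, orange knockout) in gonadal (top) and inguinal (bottom) fat of the 39 members, the 18 macrophage genes and the 8 lipid-associated macrophage genes. In gonadal fat M7 and M5 have the 2 highest sums in all 3 panels; in inguinal fat the members' sums lie within 3989 to 4344 FPKM while the macrophage sums fall from 1598 to 363.

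In inguinal fat most members lay lower in knockout mice, and none was called. By limma 0 of 38 tested members passed the adjusted p of 0.05 (background 0.022%, 3 genes of 13621). At an unadjusted p under 0.05, 10 were lower and 0 higher (background 11.6% and 3.29%). In all 31 were lower and 7 higher, with a median of -0.16 on the log2 scale against -0.10 for all genes. Groups did not overlap for 15 lower and 2 higher members (background 17.3% and 5.28%). Atp6v0d2 fell under the level filter of 0.5 FPKM and was not tested. DESeq2 on the rebuilt reads called 4 members, all lower (Hexa, Ctsc, Asah1 and Grn; background 3.13% lower), and edgeR 0 (background 0.0147%). All genes pooled ran lower in knockout inguinal fat on the FPKM scale. Rescaling by TMM factors moved the all-gene median up by 0.10, and 22 members were then lower and 16 higher, with 5 lower at an unadjusted p under 0.05 (background 6.82%).

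Acid ceramidase (Asah1, which splits ceramide into sphingosine and a fatty acid; chr8:41340197-41374773 in mm10, minus strand) had the smallest adjusted p of the members. It stood at 36.8, 29.1 and 35.2 FPKM in control and at 22.7, 18.9 and 20.7 FPKM in knockout mice, a ratio of 0.616 (log2 difference -0.68, SE 0.12, limma adjusted p = 0.137). The highest knockout pad was below the lowest control pad. With TMM scaling the difference was -0.57. Among the other lipid enzymes, Psap stood at 724, 685 and 747 against 613, 589 and 635 FPKM (log2 difference -0.23, SE 0.10, limma adjusted p = 0.378) without overlap. Lipa and Smpd1 overlapped, with differences of -0.12 and 0.06.

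Of the sugar hydrolases 8 of 9 were lower, 2 at an unadjusted p under 0.05 (background 11.6%) and 5 without overlap (background 17.3%). Of all 13621 genes tested 9616 were lower. Hexa (the alpha subunit of beta-hexosaminidase, which degrades gangliosides; chr9:59539667-59565105, plus strand) stood at 92.1, 81.0 and 89.0 FPKM in control and at 70.6, 63.7 and 64.3 FPKM in knockout mice (log2 difference -0.40, SE 0.08, limma adjusted p = 0.158). Iduronate sulfatase (Ids) stood at 14.8, 11.7 and 12.9 against 11.01, 10.8 and 10.99 FPKM (log2 difference -0.25, SE 0.10, limma adjusted p = 0.331). Sialidase (Neu1) had a difference of -0.20 (SE 0.09, limma adjusted p = 0.392). Beta-galactosidase (Glb1) stood at 13.8, 14.8 and 13.9 against 13.6, 12.4 and 13.5 FPKM and Idua at 4.43, 4.61 and 4.87 against 4.37, 3.44 and 3.94 FPKM. These 2 genes were also free of overlap, but by margins that are small beside the spread within a group. Gaa, the acid glucosidase that degrades glycogen, had a difference of 0.05 and overlapped. In the GENCODE M21 annotation 12.8% of the exon bases of Hexa are shared with Tmem202 on the opposite strand, and no source names the strand setting of the authors' counting.

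Among the membrane proteins progranulin stood apart. Grn (chr11:102430315-102437048, plus strand), a secreted and lysosomal glycoprotein cut into granulins, stood at 122, 105 and 108 FPKM in control and at 86.7, 79.3 and 84.7 FPKM in knockout mice (log2 difference -0.41, SE 0.09, limma adjusted p = 0.158). Lamp2, the membrane receptor of chaperone-mediated autophagy, stood at 74.9, 72.4 and 73.5 against 68.8, 60.6 and 56.9 FPKM (log2 difference -0.25, SE 0.09, limma adjusted p = 0.276). Both were free of overlap between the groups. Lamp1, the most abundant of the membrane proteins, stood at 308, 313 and 304 against 296, 280.0 and 279.8 FPKM, a difference of -0.11 (SE 0.08) and again without overlap. Scarb2 and Cln3 overlapped, with differences of -0.16 and -0.15. Mcoln1, the calcium channel, had a difference of 0.00 at 2 decimals with overlapping groups, and the TMM scaling put it at 0.11.

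The peptidases held the widest spread of differences. Ctsf stood at 30.1, 33.4 and 30.7 FPKM in control and at 25.8, 26.3 and 21.2 FPKM in knockout mice (log2 difference -0.36, SE 0.10, limma adjusted p = 0.217). Ctsc stood at 55.7, 31.8 and 44.5 against 28.1, 21.4 and 30.8 FPKM (log2 difference -0.68, SE 0.23, limma adjusted p = 0.269), and Lgmn at 50.4, 31.9 and 44.0 against 29.8, 23.2 and 30.8 FPKM (log2 difference -0.57, SE 0.20, limma adjusted p = 0.272). In both, control mouse M7 was only just above the highest knockout mouse. Ctsk stood at 20.4, 16.3 and 22.0 against 13.9, 16.1 and 10.6 FPKM (log2 difference -0.52, SE 0.18, limma adjusted p = 0.273), with M7 and M9 nearly equal. Ctsh, at 43.3, 20.4 and 38.1 against 25.5, 12.1 and 26.4 FPKM, had a difference of -0.67 with an SE of 0.40 and overlapped, with its lowest values in M7 and M9. Ctss, at 121, 31.6 and 77.3 against 49.95, 14.2 and 80.3 FPKM, overlapped widely and its difference of -0.78 had an SE of 0.75. The abundant Ctsb, Ctsl and Ctsz and the tripeptidyl peptidase Tpp1 lay close to no change, with differences of -0.08, -0.11, -0.07 and -0.07.

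Cathepsin D went the other way. Ctsd stood at 670.1, 1145 and 896 FPKM in control and at 1231, 1213 and 1154 FPKM in knockout mice (log2 difference 0.44, SE 0.21, limma adjusted p = 0.412). The lowest knockout pad was above the highest control pad by a small margin, and most of the spread lay among the control mice. Its share of the members' summed FPKM was 21.4 ± 4.79% in control and 28.7 ± 0.652% in knockout mice, while that of Psap was 17.1 ± 1.22% and 14.7 ± 0.706%. The sum of all 39 members was 3989, 4344 and 4269 FPKM in control and 4308, 4121 and 4099 in knockout mice, with overlapping groups. In the annotation, 34.4% of the exon bases of Ctsd are shared with Gm49369, a gene model on the same strand, so reads of the 2 models may have been split.

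The 2 acid phosphatases overlapped between the groups. Acp2 stood at 13.2, 10.1 and 10.9 FPKM in control and 9.0, 9.54 and 10.1 FPKM in knockout mice (log2 difference -0.24, SE 0.12). Acp5, an enzyme of osteoclasts and activated macrophages, stood at 204, 345 and 325 against 367, 348 and 291 FPKM (log2 difference 0.23, SE 0.22). Acp5 and Ctsd shared a low value in control mouse M6.

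Among the pump genes the balance was even. Of 5 tested members 3 were higher, with a median of 0.01. The catalytic subunit Atp6v1a stood at 29.6, 28.5 and 30.2 FPKM in control and at 29.6, 30.5 and 29.1 in knockout mice. Atp6v1h stood at 48.2, 47.8 and 44.4 against 50.3, 55.6 and 51.4 FPKM without overlap (log2 difference 0.16, SE 0.07, limma adjusted p = 0.375). The accessory subunit Atp6ap1 was lower, at 71.7, 64.1 and 70.5 against 61.0, 55.6 and 61.2 FPKM (log2 difference -0.21, SE 0.08, limma adjusted p = 0.296). None of the 7 genes with the CLEAR core in the promoter was among the 10 members lower at an unadjusted p under 0.05: their differences were -0.19 (Ctsa), 0.44 (Ctsd), -0.11 (Gla), -0.15 (Cln3), 0.00 (Mcoln1), 0.05 (Atp6v0d1) and 0.01 (Atp6v1a). Asah1, among the 10, had no promoter to search, and a difference between genes with and without the core was not tested.

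**Figure D3:**
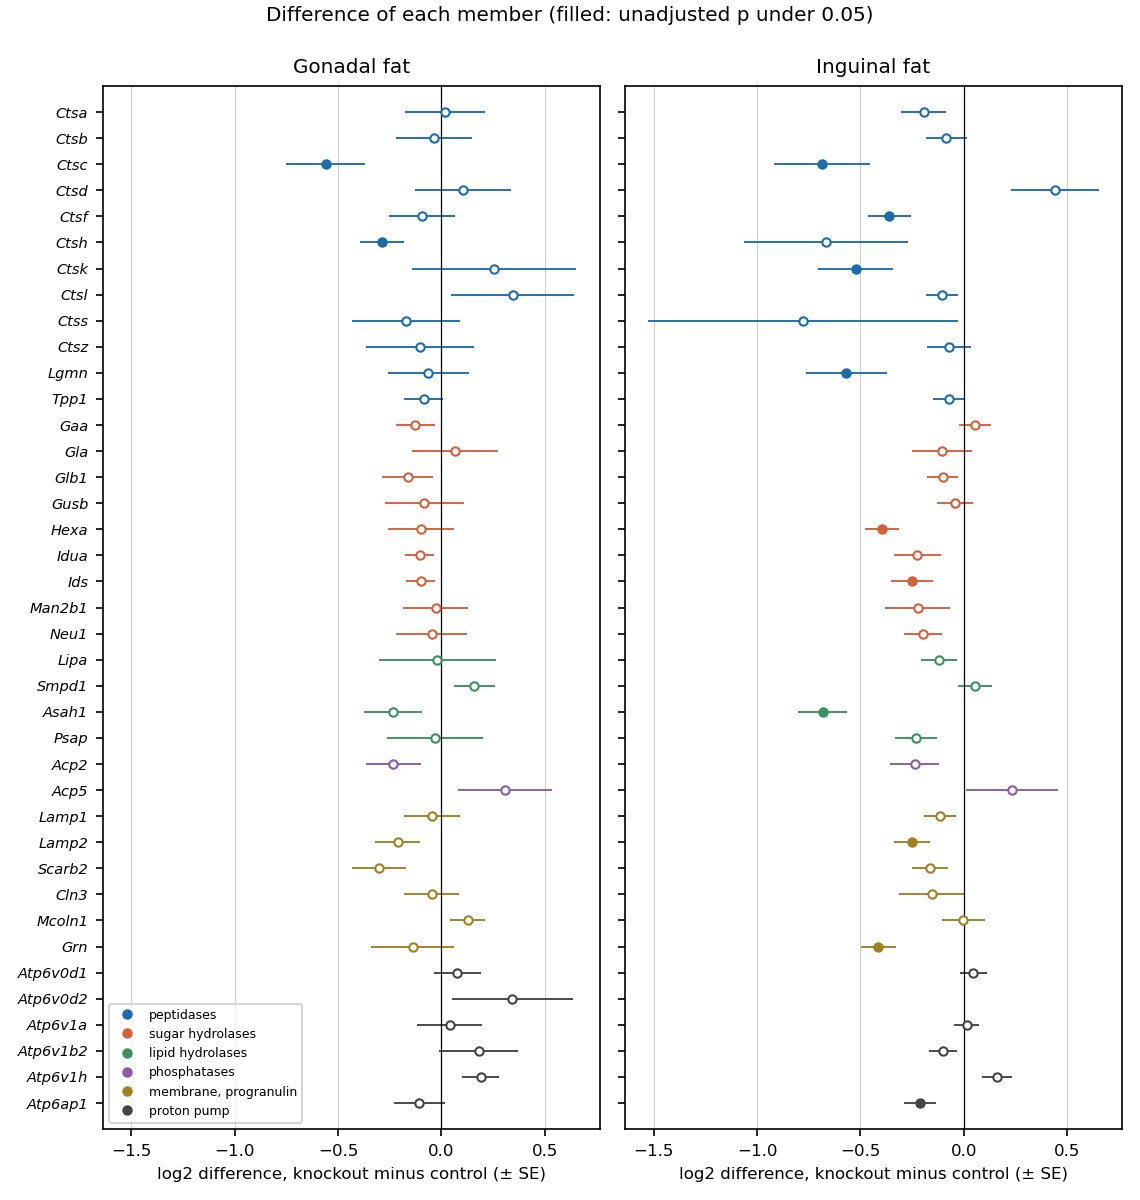
Log2 difference in FPKM + 0.5, knockout minus control, with its SE, for each member (rows, coloured by role) in gonadal (left) and inguinal (right) fat, 3 mice per group; filled points have an unadjusted limma p under 0.05. In gonadal fat Ctsc and Ctsh are filled, and in inguinal fat 10 members are, all to the left of 0.

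**Figure D4:**
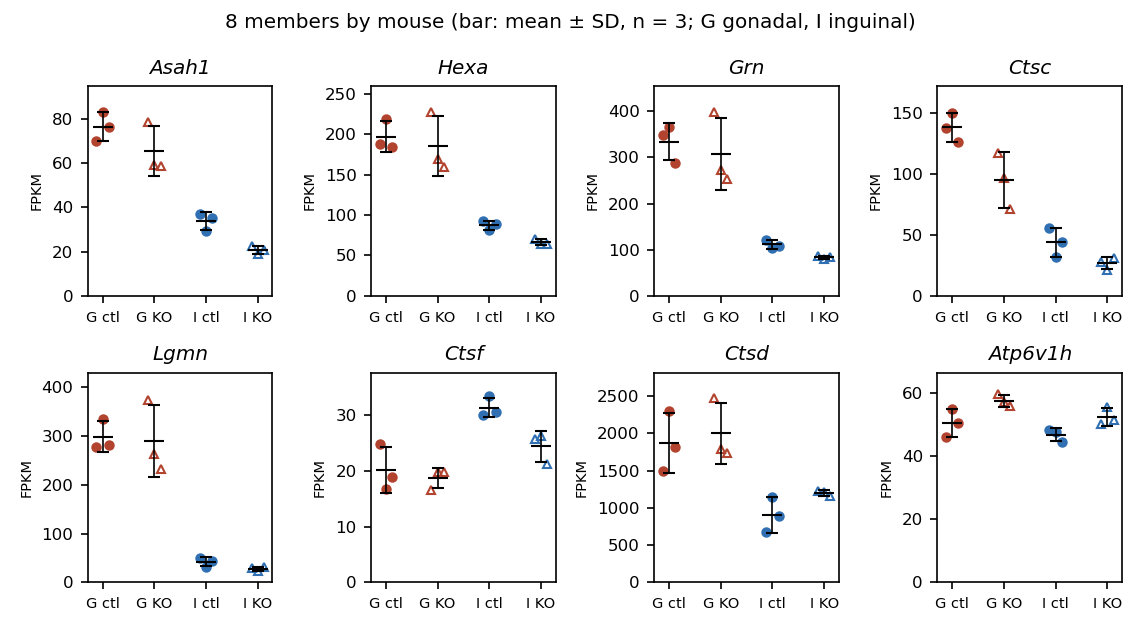
FPKM per mouse (points) with mean and SD (bars, n = 3) of 8 members in gonadal (G, red) and inguinal (I, blue) fat of control (ctl, filled) and knockout (KO, open) mice, axes from 0. In inguinal fat Asah1, Hexa, Grn, Ctsc, Lgmn and Ctsf are lower without overlap in knockout mice, and Ctsd and Atp6v1h are higher without overlap.

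Of the 35275 genes 13621 had a mean of at least 0.5 FPKM in inguinal fat, 38 of the 39 members among them. The authors' deposited table for inguinal fat lists 7 of the 39 members among 2220 genes in all. Those listed as lower are Asah1 (authors' log2 fold change -0.56), Ctsc (-0.55), Lgmn (-0.44), Grn (-0.29) and Hexa (-0.27), and those listed as higher are Ctsd (0.46) and Atp6v1h (0.28). In that deposited table the libraries, not the mice, are the columns. A limma fit with the 6 libraries of a group as replicates called 13 members, 11 lower and 2 higher (background 12.5% and 3.57%), and these 7 were among them. It counts both libraries of a mouse as replicates and uses the same libraries, so it is no independent check.

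Leaving out 1 mouse at a time changed how many of the 38 tested members were lower at an unadjusted p under 0.05 in inguinal fat. The count was 4 without M6 and 4 without M10 (background 8.75% and 7.43%), and 12 without M7, where the background rose to 17.1%. Of the 10 members named by that p with all mice, Asah1, Hexa, Grn and Ctsf kept it in all 6 such fits. Ctsf did not keep it under other scalings. With TMM factors, edgeR and DESeq2 alike, Ctsf, Ctsk, Lamp2 and Atp6ap1 lost it, and Ids lost it with TMM factors and DESeq2. In 1 fit of all 12 pads 8 of the 10 kept it, and Ctsk and Atp6ap1 did not. The pads also divide by their B cell transcripts, which were present in M5, M12, M6 and M10 and almost absent in M9 and M7. With the B cell list as a covariate 6 members were called, all lower (Lgmn, Hexa, Ctsc, Asah1, Ctsh and Grn), in a fit that called 593 of all genes (background 3.54% lower).

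Macrophage genes were lower in the same pads. Of the 18, 17 were lower in knockout inguinal fat, 13 at an unadjusted p under 0.05 (background 11.6% lower), with a median of -1.01 against -0.10 for all genes. The list summed to 1598, 740 and 1208 FPKM in control and to 656, 363 and 661 FPKM in knockout mice, and the groups did not overlap. Adgre1 stood at 7.98 in control and 2.87 FPKM in knockout mice (log2 difference -1.28), Csf1r at 26.7 and 12.9 (-0.97) and Cd68 at 20.2 and 11.5 (-0.77). None of the 18 was at 0 in any pad. Progenitor and fibroblast genes were lower too, 8 of 8 with a median of -0.52, and adipocyte genes were 5 higher and 5 lower. Of the lipid-associated macrophage genes 6 of 7 tested were lower, and Fabp5, which adipocytes also express, was higher, at 97.8 against 42.5 FPKM.

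With the mean log2 level of the macrophage list as a covariate, the members' inguinal median was -0.03 and that of all genes 0.07. Of the 38 tested members 2 were lower and 2 higher at an unadjusted p under 0.05 (background 4.21% and 16.1%). The 2 lower ones were Asah1 with a difference of -0.36 and Ctsf with -0.55. Both were among the 10 members picked by that p without the covariate. Hexa and Grn kept the direction at -0.24 and -0.21, and Ctsc and Lgmn changed sign, to 0.08 and 0.06. In all 16 of the tested members changed sign. The covariate itself did not overlap between the genotypes, so this fit divides a difference that both share.

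**Figure D5:**
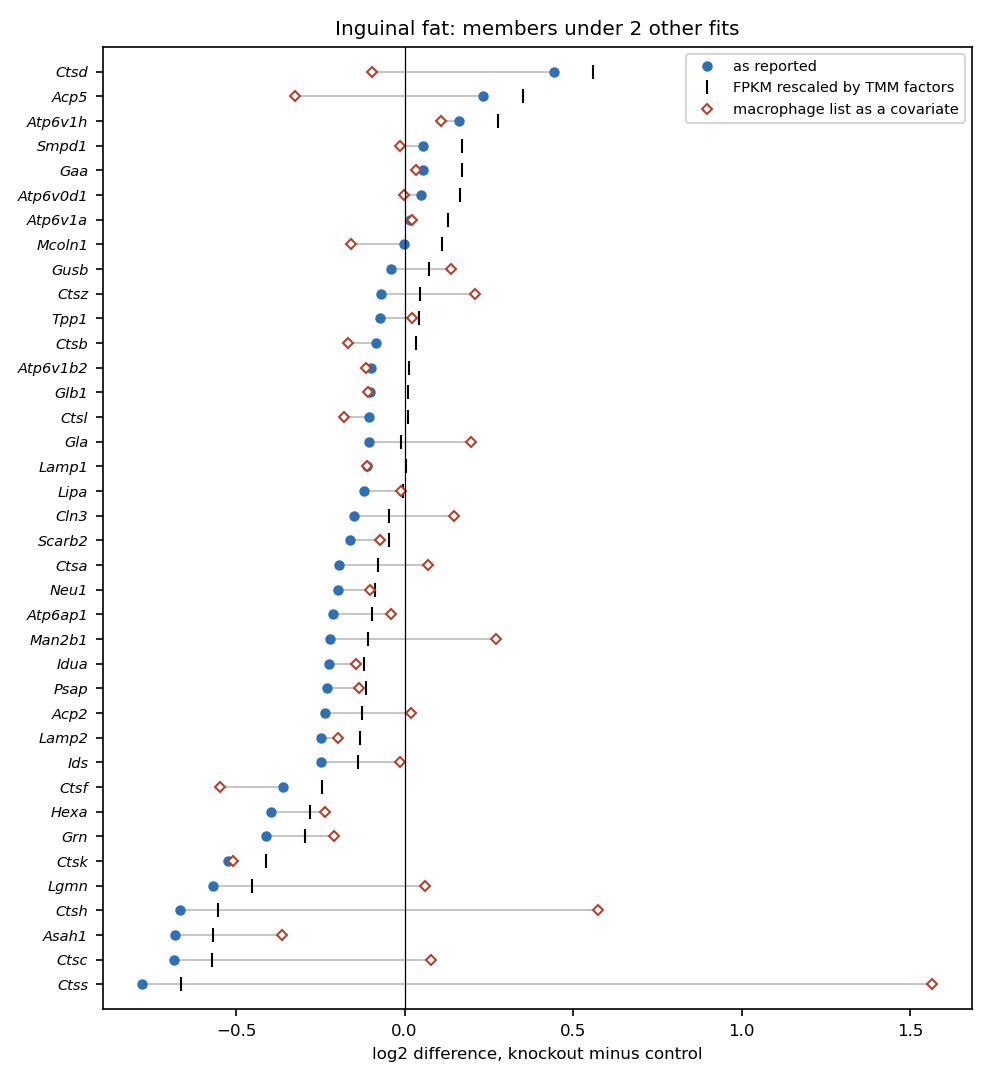
Log2 difference, knockout minus control, of the 38 tested members in inguinal fat as reported (blue), with FPKM rescaled by TMM factors (black bars) and with the macrophage list as a covariate (red diamonds). The TMM values are shifted to the right as a whole. The covariate moves 16 members across 0, among them Ctss, Ctsh, Ctsc and Lgmn, while Asah1, Ctsf and Ctsk stay to the left.

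The other lysosomal genes in inguinal fat had a median of -0.07, above the -0.10 of all genes, where the members' -0.16 was below it. Of 64 tested genes of the 3 lists, 47 were lower and 17 higher, 14 lower and 2 higher at an unadjusted p under 0.05 (background 11.6% and 3.29%), and none was called. Among the hydrolases Scpep1 had a difference of -0.32 and beta-mannosidase Manba -0.47. Among membrane proteins Sidt2 had -0.48, the tetraspanin Cd63 -0.52 and Laptm4a -0.28. Among pump genes Atp6v0e had -0.32 (SE 0.06, limma adjusted p = 0.148), Atp6v0b -0.27 and Atp6ap2 -0.21. All of these groups were free of overlap, but the genes were named for the smallest p of their list, so that is no separate result. Of the 64 genes 15 were lower and 4 higher without overlap (background 17.3% and 5.28%).

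Regulators and sorting factors of the lysosome were mixed. Gnptab, the enzyme that starts the mannose-phosphate tag on hydrolases, stood at 17.9 FPKM in knockout and 14.4 in control inguinal fat (log2 difference 0.31, SE 0.10, limma adjusted p = 0.263), without overlap. Tfec and Mitf, relatives of TFEB, had differences of -0.49 and -0.43. In gonadal fat the 3 lists had 39 of 66 genes lower and 27 higher (median -0.04). Arsa had -0.24 and Ppt1 -0.22. The transporter Abcb9 had 0.96 with overlapping groups, Tmem192 0.22 and Mfsd8 0.33, and the regulators Flcn and Tfec had 0.12 and -0.28.

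No member's knockout difference was shown to differ between the depots. The interaction over all 12 pads called 0 of 39 members by limma, edgeR and DESeq2 (background 0%, 0% and 0.096% of 14577 genes), and 1 was below an unadjusted p of 0.05 (background 4.97%). That member was Asah1, whose difference was larger downward in inguinal than in gonadal fat by 0.45 (SE 0.19, limma adjusted p = 0.982). Gonadal Asah1 stood at 70.0, 83.0 and 76.3 FPKM in control and 78.4, 59.1 and 58.6 in knockout mice, with M5 above 2 of the 3 control mice. Ctsc, by contrast, was lower without overlap in both depots, and its interaction was not below that p.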

How the data were processed

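Total RNA of 24 libraries (NEBNext Ultra kit, per the labels) was measured. CASAVA, STAR and mm10 appear in the submitters' processing notes, without versions. The deposited series table gives FPKM, which the authors scaled by gene length and reads assigned to genes, for 35275 genes. For genes listed as changed, 2 deposited comparison tables hold the authors' read counts, scaled group means (a signal), log2 fold changes and p-values. Whole reads rebuilt from the deposited FPKM (100% of values within 0.001 of a whole number) served edgeR 4.0.16 and DESeq2 1.42.0 as alternatives. No source names the strand setting of the counting.

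Library names were mapped to groups by letter (f control, z knockout, e gonadal, s inguinal), a reading inferred from the authors' mean columns. Both libraries of each pad were averaged as FPKM, and limma 3.58.1 (R 4.3.3) was run for genes with a mean of at least 0.5 FPKM, on log2(FPKM + 0.5), two-sided and with a mean-variance trend. P-values were adjusted by Benjamini-Hochberg over all genes, with a threshold of 0.05. Each knockout comparison used its own depot. Depot and interaction fits used all 12 pads in 4 groups. Differences on this scale understate the change of low genes. Nothing says how the mice were bred or processed, so p-values measure the spread between these mice. The script was tested on simulated data.

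The members and lists were chosen with earlier results of these data known. The rule for named genes took, in each role group, up to 3 with the smallest p in each knockout comparison and the 2 most abundant, and in the depot comparison the 5 largest past the threshold each way. Of each other lysosomal list it took up to 3 with the smallest p in each knockout comparison. Some of the named genes are given by their difference or range only, and others are added to complete a role or a comparison. Adgre1 and Cr2 were matched by gene ID. The mouse was used as a block in an alternative because the animal number links both pads. Deviations of the 2 pads of a mouse correlated between -0.10 and 0.14.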

Additional observations from a re-analysis of the deposited data

How the results depend on the processing

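The design of 3 mice against 3 and the level of some members limit what can be called. Other pseudocounts and filters left the counts of members called and below an unadjusted p of 0.05 in the knockout comparisons as reported; without a filter Atp6v0d2 was also tested in inguinal fat, which made 32 of 39 lower. With the 6 libraries of a group as replicates, 2 gonadal and 13 inguinal members were called, where 1125 of 14851 and 2189 of 13621 genes were called (7.58% and 16.1%). In that fit 7 gonadal members were lower and 2 higher at an unadjusted p under 0.05 (background 13.2% and 9.64%). Of the inguinal ones 19 were lower and 2 higher at that p (background 23.7% and 6.67%). Foxo1 was called at -1.18 in gonadal and -1.86 in inguinal fat. With TMM factors 0 gonadal and 5 inguinal members were lower at that p (background 3.08% and 6.82%), and the inguinal median was -0.047. With edgeR 6 inguinal members were lower and 1 higher (background 8.16% and 4.84%). DESeq2 called 4 inguinal members of 661 genes (background 4.85%) and Foxo1 at -1.28 in gonadal and -1.83 in inguinal fat. It gave 5 inguinal members lower and 2 higher at that p (background 7.53% and 6.15%), with a median of -0.048. With each mouse left out in turn, gonadal members lower at that p numbered 0 to 7 (background 2.59% to 6.51%) and higher 0 to 1 (2.49% to 6.1%). Inguinal ones numbered 4 to 12 (background 7.43% to 17.1%) and 0 to 1 (2.19% to 4.17%). The lowest inguinal counts were without M6 and without M10, and the highest gonadal count without M5. All 12 pads in 1 fit gave 1 higher gonadal member (background 4.8%), 9 lower inguinal members (background 12.2%), and called Foxo1 in inguinal fat (-1.86).

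The macrophage covariate gave 0 lower and 1 higher in gonadal fat (background 1.45% and 1.7%), with a median of 0.22. In inguinal fat it gave 2 lower and 2 higher (background 4.21% and 16.1%), with a median of -0.027 (all genes 0.075). Under this covariate 17 gonadal and 16 inguinal members changed sign. Ctsc (0.079) and Lgmn (0.060) were among the inguinal ones, and the cause was not tested. Other covariates were added after seeing the data. In gonadal fat the epididymis list gave 1 lower member (background 4.87%). The lipid-associated macrophage list gave 5 lower and 1 higher (background 8.09% and 6.62%). In inguinal fat the B cell list gave 6 called members of 593 genes (background 4.35%) and Foxo1 called at -1.86. It gave 1 member higher at an unadjusted p under 0.05 (background 4.78%). The skeletal muscle list gave 8 lower (background 9.15%).

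In the depot comparison 32 to 37 members were called in control and 30 to 39 in knockout mice over the alternatives run (all genes 26.9% to 65.3% and 27.9% to 68%). With the mouse as a replicate block 37 and 36 were called. In control mice the block added Acp5. In knockout mice it added Acp5 and dropped Ctsf. The block called 0 interaction members and changed no other member's call. No depot or interaction difference of a called member reversed.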
